A study of Mus musculus with 6 samples.

Results

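Collagens of basement membranes and of network-forming membranes were followed as 10 genes in RPE/choroid, that is, the retinal pigment epithelium and the choroid, the layer of vessels and stroma on which it rests. They are the 6 chains of type IV collagen (Col4a1 to Col4a6), both chains of type VIII collagen (Col8a1 and Col8a2), and the single chains of types XV and XVIII (Col15a1 and Col18a1). Members were identified by gene symbol, from a list made with earlier results of these data known, and all 10 were found among the 33924 genes of the table. The tissue came from male C57BL/6J mice without further genetic change or treatment, 3 labelled young, at 1 to 2 months, and 3 labelled aged. For the aged mice the titles give 20 to 24 months and the time label gives 22 to 24 months. In its methods, however, the study gives males and females and a somewhat older range for the young group, so sex and age are uncertain to that extent. Each sample held tissue from a pair of eyes, and the libraries were made from total RNA depleted of ribosomal RNA.

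The measurement was the authors' mean of normalized counts over all 6 libraries, 1 value per gene. It joins young and aged mice, so every level below describes the tissue across both ages. The columns that compare the ages belong to the study's own analysis and were not used, and no value per mouse was analysed here. For this reason no SD, no n per value and no test can accompany a level, neither spread between mice nor a difference with age was measured, and the depth of each library is unknown here. Ratios between genes are descriptions of these means, and it is not known which of the smaller ones exceed the spread between mice.

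Type IV collagen forms the sheet-like network of every basement membrane, in which 3 chains wind into a trimer. The α1 and α2 chains occur in nearly all basement membranes, whereas the α3, α4, α5 and α6 chains enter trimers of more restricted distribution, known from the kidney glomerulus and also from the eye. Type VIII is a short-chain collagen that builds hexagonal lattices, best known from Descemet's membrane of the cornea and from vessel walls. Types XV and XVIII are collagens of basement membrane zones that carry heparan or chondroitin sulfate, and the C-terminal part of type XVIII is the source of endostatin, an inhibitor of vessel growth. Bruch's membrane, between the pigment epithelium and the choroidal capillaries, contains the basement membranes of both.

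The 6 chains of type IV are encoded by 3 pairs of neighbouring genes that start close together and are read in opposite directions. On chromosome 8 (GRCm38), the annotated starts of Col4a1 (minus strand, 11312826) and Col4a2 (plus strand, 11312805) overlap by 22 bases. On the X chromosome, 1308 bases lie between the starts of Col4a6 and Col4a5. Between Col4a4 (minus strand) and Col4a3 (plus strand) on chromosome 1 there are 71 bases, which is all the DNA that separates these genes. That stretch is shown because the levels of both genes are compared below. It lies outside annotated exons and is written on the strand of Col4a4 at chr1:82586850-82586920 (RefSeq, GRCm38).

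between Col4a4 and Col4a3: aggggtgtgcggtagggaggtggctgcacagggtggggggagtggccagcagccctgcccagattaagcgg

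The stretch is rich in G and C (69.0%, against a median of 54.9% in the 71 bases before each of 32844 RefSeq starts). It holds 0 matches to the TATA box (TATAAA), the CCAAT box (CCAAT) and the GC box (GGGCGG), each searched on both strands. In windows of this length these motifs occur in 4.41%, 13.3% and 20.7% of starts, so a stretch without any of them is common.

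The DNA before the starts of both type VIII genes is shown next, because they had the highest levels of the 10 per kb of the longest transcript, per kb of coding length and without division by length. With the median length of protein-coding transcripts, Col4a1 lay between them. Capitals mark matches to the GC box in either orientation, where neighbouring matches can overlap. Col8a2 lies on the plus strand of chromosome 4 (chr4:126286544-126286792), and Col8a1 on the minus strand of chromosome 16 (chr16:57754738-57754987). Both stretches end at the last base before the annotated transcript.

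Col8a2: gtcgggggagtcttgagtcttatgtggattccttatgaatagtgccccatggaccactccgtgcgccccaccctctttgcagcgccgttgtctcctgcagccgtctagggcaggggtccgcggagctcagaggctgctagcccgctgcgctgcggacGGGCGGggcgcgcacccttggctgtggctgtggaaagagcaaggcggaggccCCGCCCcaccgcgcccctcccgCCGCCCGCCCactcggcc

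Col8a1: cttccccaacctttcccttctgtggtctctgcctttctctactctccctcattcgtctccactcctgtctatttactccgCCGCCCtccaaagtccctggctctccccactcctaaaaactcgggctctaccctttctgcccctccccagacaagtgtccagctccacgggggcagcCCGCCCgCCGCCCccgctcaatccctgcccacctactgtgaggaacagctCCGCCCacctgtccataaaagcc

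Each of these stretches holds 4 matches to the GC box, a number reached by 4.09% of 32841 RefSeq starts in the 250 bases before them, and neither holds a TATA or CCAAT box. The GC box consists of G and C only, and both stretches are rich in these bases. They make up 69.9% for Col8a2 and 60.8% for Col8a1, against a median of 52.4% before all starts. The starts behind the 4.09% were not matched for G and C, so that share does not separate GC boxes from base composition. The stretches differ in CpG, with 23 in that of Col8a2 and 10 in that of Col8a1, against a median of 6 in the 250 bases before all starts. Of the other members, Col4a2, Col4a5, Col4a6 and the upstream start of Col18a1 had at least 1 GC box in these 250 bases, and Col4a1, Col4a2, Col4a5 and the same start of Col18a1 had a CCAAT box. Over all starts, 32.7% had a GC box and 33.9% a CCAAT box in this window, so both are common. RefSeq lists a pair of starts for Col18a1, at 77166530 and 77113705 on chromosome 10, and the downstream one had none of the motifs. No member held a TATA box in this window, which occurs in 12.4% of starts. Col4a3 has no entry in the table of promoters.

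Levels were compared between genes per kilobase (kb) of the longest annotated transcript, because longer transcripts give more reads. By the methods, TPM values, which are abundances already corrected for transcript length, were turned into normalized counts, and whether this restored the effect of length is not stated. Across 13847 protein-coding genes with a mean of at least 10, the mean and the transcript length had a Spearman correlation of 0.30, a description across genes that share the same libraries. The values thus rose with length, and for the 10 members undivided means are given beside the levels per kb. Levels of other genes are given per kb of the longest transcript, and orders among them hold for that scale. Of the 26681 genes with a mean above 0, 22862 had a gene model of the same symbol, and their median level was 46.7 normalized counts per kb. All 10 collagens lay above it.

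Type VIII collagen dominated the group. Col8a2, on chromosome 4 at 126286793 to 126314330, had a mean of 26816 normalized counts and a level of 6190 per kb, which was higher than that of 99.7% of the genes with a gene model. Col8a1, on chromosome 16 at 57624258 to 57754737, had a mean of 17661 and a level of 3457 per kb, higher than 99.1% of genes. Together they held 69.1% of the summed level per kb of the 10 genes. The level of Col8a2 was 1.79 times that of Col8a1 on this scale, 1.52 times without division by length and 3.32 times with the median length of protein-coding transcripts. Both genes have a short coding part (2097 and 2232 bases) within transcripts of 4332 and 5108 bases in 4 exons each, so that 51.6% and 56.3% of the transcript is non-coding.

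**Figure D1:**
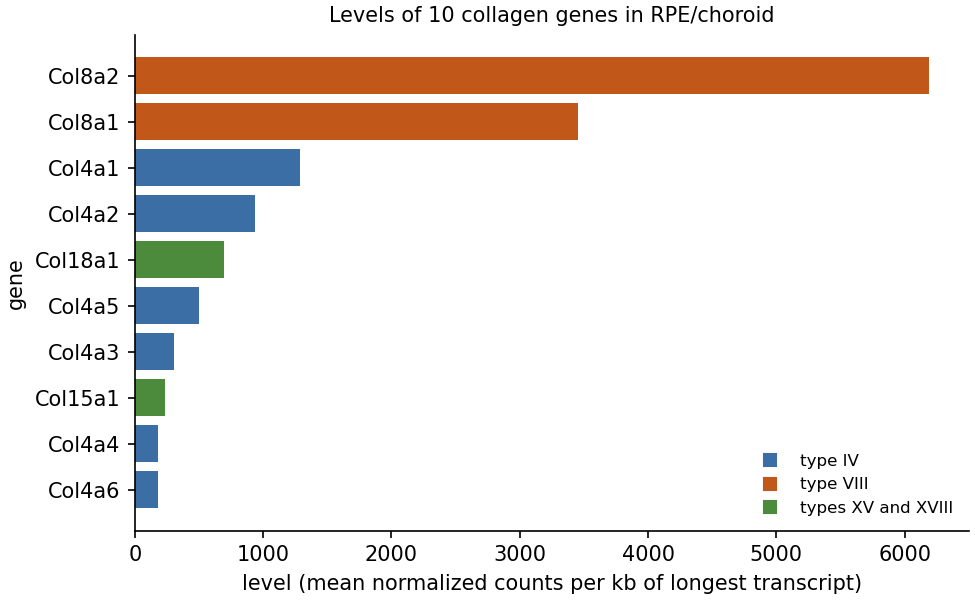
Levels of the 10 collagen genes in normalized counts per kb of the longest transcript, from the authors' mean over 6 libraries of young and aged mice (bars, coloured by collagen type, with no error bars because no value per mouse was used). Col8a2 and Col8a1, at 6190 and 3457 per kb, stand above the type IV chains, which run from 178 to 1287 per kb.

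The common chains of type IV followed. Col4a1, which encodes the α1 chain (chromosome 8, 11198423 to 11312826, minus strand, 52 exons), had a mean of 8513 and a level of 1287 per kb, higher than 96.9% of genes. Col4a2, which encodes the α2 chain (chromosome 8, 11312805 to 11449287, 48 exons), had a mean of 6032 and a level of 935 per kb, higher than 95.1% of genes. Col4a1 was thus 1.38 times as high as Col4a2, and the ratio was 1.41 without division by length but 7.78 with the median length of protein-coding transcripts. These genes, which share a start region, held 65.6% of the summed level of the 6 type IV chains.

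The other chains of type IV were lower. Col4a5 (X chromosome, 141475385 to 141689234), whose chain enters trimers with α3 and α4 and also with α6, had a mean of 3256 and a level of 498 per kb, higher than 89.3% of genes. Col4a3 (chromosome 1, 82586921 to 82722059) had a mean of 2610 and a level of 305 per kb, and its neighbour Col4a4 (chromosome 1, 82448423 to 82586849) had 1864 and 184 per kb. The lowest of all 10 genes was Col4a6 (X chromosome, 141165403 to 141474076), with a mean of 1181 and a level of 178 per kb, which still exceeded that of 71.7% of genes. It is also the longest gene of the 10, with a span of 309 kb, and Col8a2, the highest, is the shortest with 27.5 kb.

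Within the remaining pairs of neighbours, Col4a3 was 1.65 times as high as Col4a4 and Col4a5 was 2.80 times as high as Col4a6. The difference between Col4a3 and Col4a4 depends on the long non-coding parts of their transcripts, which are 41.5% of 8554 bases for Col4a3 and 50.1% of 10108 bases for Col4a4, and per kb of coding length the ratio was 1.41. With the median length of protein-coding transcripts it was 3.08, and on that scale Col4a5 was 0.911 times as high as Col4a3, against 1.63 times with the longest transcript. Col4a4 and Col4a6, with 184 and 178 per kb of the longest transcript, were next to each other in the order. Per kb of coding length they had 369 and 233, and undivided means of 1864 and 1181, and on both of these scales Col15a1 lay between them. As shares of the type IV level per kb, Col4a1 had 38.0%, Col4a2 27.6%, Col4a5 14.7%, Col4a3 9.01%, Col4a4 5.45% and Col4a6 5.24%.

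Of types XV and XVIII, which both carry sulfated sugar chains, type XVIII was the higher. Col18a1 (chromosome 10, 77052178 to 77166548, minus strand) had a mean of 3911 and a level of 699 per kb, between Col4a2 and Col4a5 in the order. Col15a1 (chromosome 4, 47208161 to 47313167) had a mean of 1211 and a level of 234 per kb, between Col4a3 and Col4a4. The ratio of Col18a1 to Col15a1 was 2.99 per kb, and 1.69 with the median length of protein-coding transcripts. Transcripts of Col18a1 that differ at their 5′ end were summed in 1 value, so the use of its different starts was not measured.

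The table holds 43 genes for collagen chains, and the 10 members had 25.9% of their summed level per kb. Col8a2 and Col8a1 were the fourth and the fifth highest of them, after the fibrillar chains Col1a2, Col1a1 and Col3a1 with 12072, 7732 and 6392 per kb. Without division by length Col12a1, with a mean of 34675, lay above both. Col4a1 was at place 9, Col4a2 at 12, Col18a1 at 17, Col4a5 at 20, Col4a3 at 21, Col15a1 at 23, Col4a4 at 25 and Col4a6 at 26. The genes below all members include Col2a1, the chain of cartilage collagen, with 24.4 per kb. Of a list of 9 fibrillar collagen chains of types I, II, III, V and XI, which leaves out Col24a1 and Col27a1, 8 lay above the median of all genes.

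**Figure D2:**
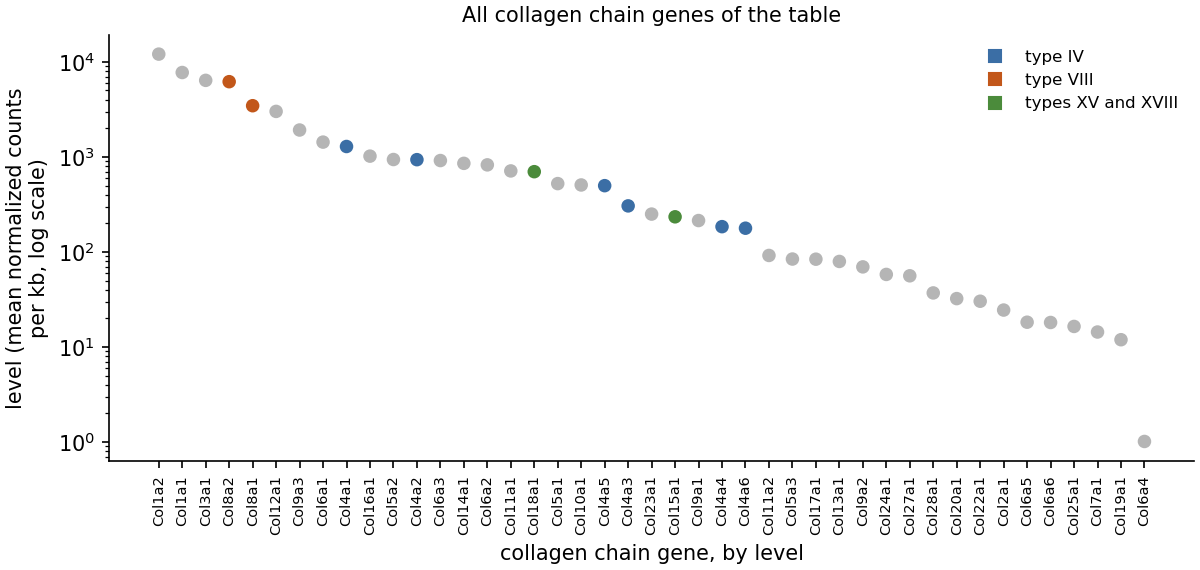
All 43 collagen chain genes of the table ordered by level (normalized counts per kb of the longest transcript, log scale), 1 point per gene, with the 10 members coloured by type and other collagens in grey. The members take places 4 to 26, and on this scale a gap separates the lowest of them, Col4a6 at 178 per kb, from the next gene, Col11a2 at 91.8 per kb. Without division by length the next gene below Col4a6, with a mean of 1181, is Col9a1, with a mean of 820.

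Partner genes were described from lists of genes that build basement membranes or process collagen. Of 15 laminin, nidogen, perlecan and agrin genes, 12 lay above the median level of 46.7 per kb, with a median of 314 per kb. The highest per kb were Lamb2, the laminin β2 chain, with 1444 per kb, Nid1, which links laminin to type IV collagen, with 668 per kb, and Hspg2, the perlecan core protein, with 661 per kb. Without division by length the order was different, with means of 9376 for Hspg2, 8128 for Lamb2, 6235 for Lama2 and 4067 for Nid1. Lamb3 and Lama1, chains of laminins found in epithelial and embryonic membranes, lay below the median, with 10.2 and 14.2 per kb. Levels of Col4a1 and Lamb2 were close to each other (1287 and 1444 per kb), and both lay above those of the other laminin and nidogen genes on this scale.

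Of 15 genes for collagen assembly and processing, 14 were found under their symbols and 12 lay above the median. Serpinh1, a chaperone of collagen in the endoplasmic reticulum, had 3488 per kb, P4hb, a subunit of prolyl 4-hydroxylase, had 2972 per kb, and Ctsl, a lysosomal protease able to release endostatin, had 2169 per kb. Pxdn, the peroxidase that cross-links type IV collagen, had 206 per kb. Mia3 was not found under that symbol. Among 7 receptor genes, Itgb1, the β1 integrin subunit, had 2736 per kb, and Ddr2 and Ddr1, collagen-binding receptor kinases, had 680 and 334 per kb. The α subunits that pair with β1 to bind collagen had lower levels, from 20.6 per kb for Itga2 to 81.9 per kb for Itga1.

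Marker genes were used to check the tissue. Of 6 RPE markers, 5 had levels from 4712 (Lrat) to 83745 per kb (Ttr), with Rpe65 at 23481 and Rgr at 19598 per kb, and Best1, a chloride channel of the pigment epithelium, had 33.6 per kb, below the median of all genes. The 4 pigment cell genes ran from 8651 to 27072 per kb, led by Pmel, Dct (25772) and Tyrp1 (21831), of which the pigment epithelium also expresses some. The 5 endothelial markers ran from 257 to 1187 per kb, led by Plvap, Kdr (1077) and Tek (499). Among 5 mural cell markers, Rgs5 had 5211, Acta2 1697 and Pdgfrb 892 per kb, and the lowest was at 169. The fibroblast markers were Dcn with 9256, Lum with 3753 and Pdgfra with 800 per kb. Of 4 macrophage markers, Cd68 had 995, Csf1r 864 and Mrc1 541 per kb, and Adgre1 was not found under that symbol. Markers of the pigment epithelium, vessels and stroma were thus all present.

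Genes of other tissues were measured as well, although the cornea, lens, muscle and retina were dissected away. Cornea markers had 2126 (Aldh3a1), 1487 (Krt12) and 174 per kb (Kera). This bears on type VIII, a collagen of the cornea, and the part of corneal tissue in the levels of Col8a1 and Col8a2 was not tested. All 4 lens markers were present at 493 to 1559 per kb, led by Cryaa, Cryab (1481) and Crybb2 (1351). So were rod photoreceptor markers, among them Gnat1 with 5239 and Sag with 2785 per kb. Skeletal muscle markers had 12062 (Acta1), 8615 (Myh4) and 4719 per kb (Ckm). The lens capsule and muscle fibres carry basement membranes of their own, and the part of these tissues in the type IV levels was not tested. Whether the transcripts of the lens markers came from lens tissue was not tested either. In bulk tissue, the number of cells that express a gene and the amount of RNA per cell cannot be told apart.

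**Figure D3:**
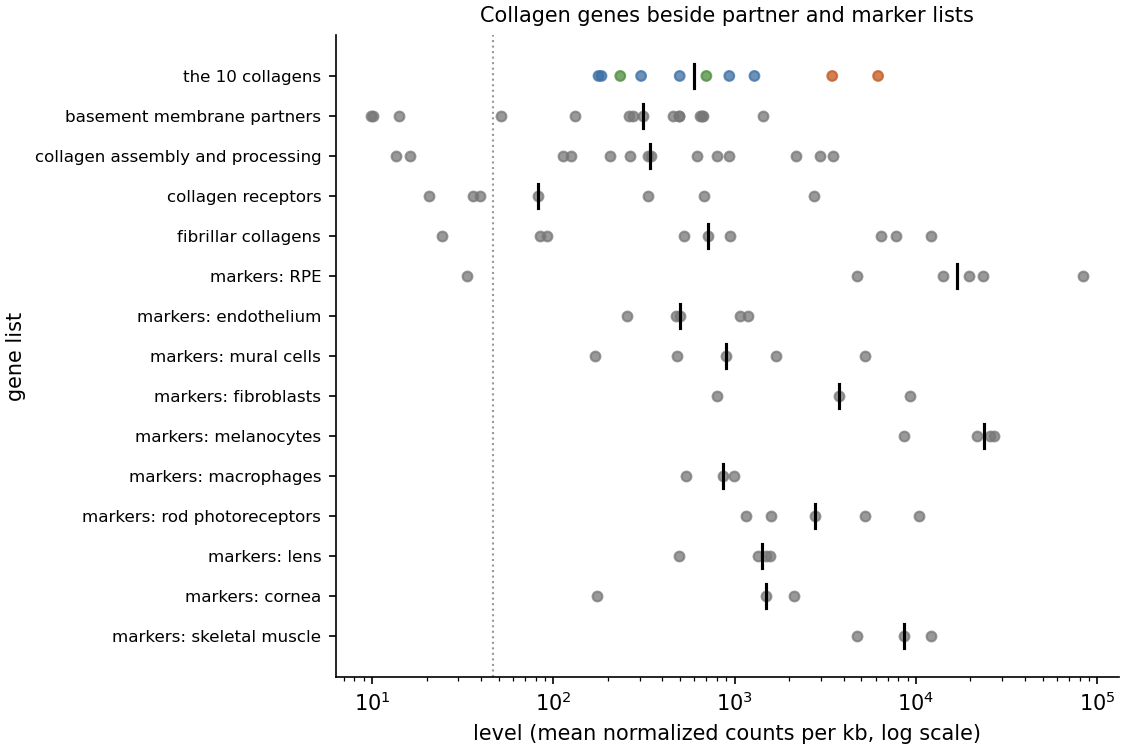
Levels (normalized counts per kb of the longest transcript, log scale) of the 10 collagens, of partner lists and of marker lists, 1 point per gene with a black bar at each list's median and a dotted line at the median of all genes, 46.7 per kb. The 10 collagens lie to the right of the dotted line, and markers of cornea, lens, rods and skeletal muscle are present beside those of RPE, vessels and stroma.

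The reads behind these values could be assigned to the members with little ambiguity. Of the 31-base words in their transcripts, 99.5% to 100% occurred in no other annotated gene for 9 members, and 94.9% for Col4a3, whose exons overlap by 563 bases with a gene on the other strand, C430014B12Rik, at a mean of 33.7. Only the exons of Col4a1, Col4a2, Col4a3 and Col15a1 overlap those of another gene, in each case on the other strand. The libraries were stranded, but whether strand was used in counting is not given in the sources used here.

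The order of the members depended in part on the length used. Per kb of coding length and without division by length, 8 of the 10 genes kept their place each time. Under both, Col15a1 and Col4a4 exchanged places. With the median length of all protein-coding transcripts of a gene, 6 genes kept their place. Col4a1 then lay above Col8a1, with 7276 against 3457 per kb, and Col4a3 above Col4a5, with 569 against 518 per kb. Col4a1 held 28.1% of the summed level on this scale because the median length of its protein-coding transcripts is far below that of the longest.

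**Figure D4:**
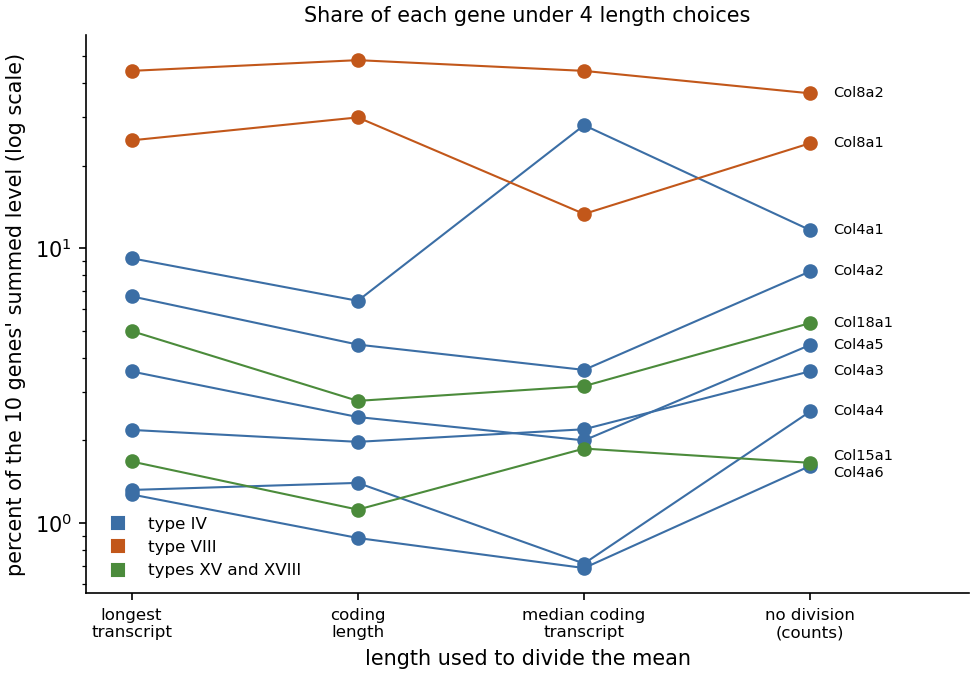
Share of each gene in the summed level of the 10 collagens (percent, log scale) when the authors' mean is divided by the longest transcript, by coding length, by the median length of protein-coding transcripts, or not at all, with lines coloured by collagen type. Col8a2 is highest under each choice, with 36.7% to 48.5%, and Col4a1 moves most, from 6.45% to 28.1%.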

How the data were processed

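Total RNA from RPE/choroid of 3 young and 3 aged mice was sequenced. Per the methods of the study, reads were trimmed with BBDuk, aligned with STAR to Ensembl transcripts of GRCm38, quantified with Sailfish as TPM, turned into normalized counts by the total count method, and compared with DESeq2 by the authors. The deposited table has 1 row per gene. The only column used is the deposited baseMean, a normalized signal that the authors averaged over all 6 libraries. The other 5 columns of values, which hold the authors' own comparison of young and aged mice (fold change, its standard error, a test statistic and p-values), were not used. Samples were grouped by their titles, but no test between the groups was made, and depth per library, and with it counting error, is unknown here.

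Gene models were those of GENCODE M21 and promoters those of RefSeq, both on GRCm38, and the authors used an earlier Ensembl release of this build. Levels per kb are the mean divided by the length of the longest transcript. Alternatives were coding length, the median length of protein-coding transcripts, no division, and universes of genes with a mean of at least 10 or protein-coding genes. Words of 31 bases were compared on both strands with all transcripts. Functions for ranks and words were tested on simulated data. Python 3.11.15 with pandas 2.3.3 was used. By rule, the genes named are all members and, from each other list, the 3 with the highest levels and any gene at 0 or missing, except that some list genes are not reported here. Lama1, Lama2, Lamb3, Pxdn, Itga1, Itga2, Best1, Lrat, Col2a1, Col11a2, Col12a1, Col24a1 and Col27a1 fall outside this rule and were named after their values were seen. The members and lists were chosen with earlier results of these data known.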

Additional observations from a re-analysis of the deposited data

How the results depend on the processing

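The limits of these values are those of a pooled mean. No SD, leave-one-out value, pseudocount or low-value filter on libraries could be computed, and no comparison of ages was run. No paired analysis was possible because no value per mouse was used. Without a spread between mice, any change in the third digit is given below as a change. With coding length, the ratios were 1.44 for Col4a1 to Col4a2, 1.41 for Col4a3 to Col4a4, 1.23 for Col4a5 to Col4a3, 2.76 for Col4a5 to Col4a6, 1.62 for Col8a2 to Col8a1 and 2.49 for Col18a1 to Col15a1. Without division by length they were, in the same order, 1.41, 1.40, 1.25, 2.76, 1.52 and 3.23. With the median length of protein-coding transcripts they were 7.78, 3.08, 0.911, 2.92, 3.32 and 1.69. Among these, 1 turned direction, that of Col4a5 to Col4a3, which was 1.63 with the longest transcript. By construction, this median falls where a gene has short protein-coding transcripts besides its longest. The share of type VIII in the 10 genes was 78.5% with coding length, 57.7% with the median length and 60.9% without division. For Col4a1 and Col4a2 in type IV it was 62.0%, 85.0% and 62.0%, and for the 10 genes among all collagen genes 33.1%, 20.0% and 23.3%. Shares under the first and second of these lengths were added after the data had been seen. The median of genes with a mean of at least 10 was higher, at 126 per kb, and that of protein-coding genes was 103 per kb. Above the former lay 11 of the 15 basement membrane partners and 10 of the 15 assembly and processing genes. So did 3 of the 7 receptor genes, against 4 above the median of all genes, and 6 of the 9 fibrillar chains, against 8. Of the values of single members under these lengths and universes, 56 moved and 4 did not. Most such changes follow from the change of divisor or universe itself, so these counts do not measure how stable the values are. Among genes with a mean of at least 10, the share of genes below a member ran from 59.3% to 99.5%, and among protein-coding genes from 62.9% to 99.6%.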
